A study of Mus musculus with 6 samples.

Results

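Messenger RNA signals of 8 genes of injury and remodelling matrix were followed in the soleus of mice, a slow-fibred muscle of the calf that works against gravity. The genes were Fn1, Tnc, Postn, Thbs1, Sparc, Spp1, the cross-linking enzyme gene Lox and the protease inhibitor gene Serpina3n. They were chosen by their measured signals, which in an earlier look at these data differed between the duplicate arrays of the suspended group. That difference is therefore given as a description, with no test. Of the 8 genes, 7 were matched by symbol among the 19938 genes measured, each through 1 transcript cluster (the array's probe group for a gene). Spp1 was not analysed here.

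The 6 arrays formed 3 groups of 2: hindlimb suspension with electroacupuncture, hindlimb suspension alone, and control. Suspension holds the hind limbs clear of the floor, so that the soleus bears no load, and electroacupuncture sends current through inserted needles. Every sample came from male C57BL/6 mice aged 8 weeks, and total RNA was taken from soleus tissue. The sources used here give neither the length of suspension nor whether duplicate arrays held RNA of different mice, so the p-values measure the spread between arrays, which may be technical. Values are the authors' normalized log2 signals, on which a difference of 1 is 2-fold. In RNA of muscle tissue, fewer cells of a type and less RNA per cell cannot be told apart.

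Injured or reloaded tissue first lays down a provisional matrix rich in fibronectin. Matricellular proteins such as tenascin-C, periostin, thrombospondin-1 and SPARC are then secreted into it, where they modulate adhesion, growth factor activity and collagen assembly rather than bear load. Lysyl oxidase hardens the new matrix by oxidizing lysines of collagen and elastin so that fibres cross-link. In muscle these proteins come largely from fibroblasts and other cells between the fibres.

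All 7 measured genes differed in the same direction between the suspension arrays, so direction did not choose the promoters shown. The RefSeq promoter table held no window for Fn1 and Thbs1, and a further gene was left out. The promoters of the other 4 genes are shown. Each is given as the 250 bases before a RefSeq start on build GRCm38.p6. Capitals mark matches on either strand to 6 motifs of factors that act on matrix and inflammation genes, of which 5 are spelled out after the sequences and the CArG box is given by name. The Tnc window is chr4:64047016-64047265 on the minus strand, the Postn window chr3:54359017-54359266 on the plus strand, the Sparc window chr11:55420081-55420330 on the minus strand and the Serpina3n window chr12:104406458-104406707 on the plus strand. The Serpina3n start lies 62 bases from the gene's outermost annotated start.
Tnc promoter: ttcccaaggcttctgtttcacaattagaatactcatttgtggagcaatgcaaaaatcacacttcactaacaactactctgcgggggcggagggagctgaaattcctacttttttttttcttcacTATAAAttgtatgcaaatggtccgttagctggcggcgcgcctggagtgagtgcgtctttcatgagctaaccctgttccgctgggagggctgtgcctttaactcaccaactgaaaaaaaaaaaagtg
Postn promoter: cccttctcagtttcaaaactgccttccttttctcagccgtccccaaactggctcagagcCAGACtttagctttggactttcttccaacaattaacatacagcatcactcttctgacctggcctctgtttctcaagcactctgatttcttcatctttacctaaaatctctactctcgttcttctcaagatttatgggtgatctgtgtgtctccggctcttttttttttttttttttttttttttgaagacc
Sparc promoter: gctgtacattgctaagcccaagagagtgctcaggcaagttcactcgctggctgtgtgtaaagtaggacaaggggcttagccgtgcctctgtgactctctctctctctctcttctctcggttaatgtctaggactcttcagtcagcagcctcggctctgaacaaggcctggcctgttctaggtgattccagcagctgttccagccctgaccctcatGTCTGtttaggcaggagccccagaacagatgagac
Serpina3n promoter: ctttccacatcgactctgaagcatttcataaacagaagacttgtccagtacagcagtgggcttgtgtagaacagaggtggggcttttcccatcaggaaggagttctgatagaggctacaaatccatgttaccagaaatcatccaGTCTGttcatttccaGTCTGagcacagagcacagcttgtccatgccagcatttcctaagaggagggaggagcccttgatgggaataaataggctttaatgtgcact

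The SMAD motif was searched as CAGAC on either strand, with any overlap allowed. It was found in 3 of these 4 windows, and in 42.1% of the windows of 27025 genes. The match lay 191 bases before the start in Postn, 35 bases before it in Sparc, and 106 and 91 bases before it in Serpina3n. The TATA box, searched as TATAAA, matched in Tnc at 126 bases before the start, and 13.0% of all windows held one. The other motifs had no match in these 4 windows. The AP-1 motif, searched as TGANTCA, occurred in 6.87% of all windows. The TEAD motif, searched as CATTCC, occurred in 12.6% of them. The STAT motif, searched as TTCNNNGAA, occurred in 7.18%, and the CArG box in 1.40%. A match is a description of letters and not a site in use.

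All 7 measured genes had a higher signal on suspension array 1 than on suspension array 2, by 0.55 to 3.82 log2 with a median of 2.42. The median over all genes was 0.03, and 5% of genes lay above 0.49. A difference of at least 2-fold toward array 1 was seen for 6 of the 7, Sparc only just among them, and for 0.627% of all genes. Since these differences chose the genes, nothing is read from that count. The signals of each gene follow by role.

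Fn1 encodes fibronectin, the adhesive glycoprotein that cells bind through integrins. Its log2 signals were 9.21 and 8.63 on arrays 1 and 2 of suspension with electroacupuncture, 10.85 and 7.92 in suspension, and 9.39 and 9.74 in control. The suspension arrays thus lay on either side of the other 4, at 7.66-fold from each other.

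Tnc encodes tenascin-C, a large glycoprotein that is scarce in resting muscle and abundant at injuries and muscle-tendon junctions. Its signals were 4.85 and 4.58 with electroacupuncture, 6.51 and 4.10 in suspension alone, and 5.05 and 5.20 in control. The order was that of Fn1, with suspension array 1 highest and suspension array 2 lowest of the 6, at 5.35-fold.

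Lox encodes lysyl oxidase. Its signals were 5.89 and 5.30 with electroacupuncture, 6.96 and 4.74 in suspension alone, and 5.65 and 5.90 in control. Again the suspension arrays were the highest and the lowest, at 4.67-fold. The treated and control arrays overlapped.

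Postn encodes periostin, which binds collagen and promotes its assembly. Its signals were 6.87 and 5.71 with electroacupuncture, 7.41 and 4.95 in suspension alone, and 7.67 and 8.31 in control. Here all 4 arrays of suspended mice lay below both control arrays, and the suspension arrays differed 5.52-fold. The electroacupuncture arrays also differed, by 2.23-fold with array 1 higher, a size reached by 0.130% of all genes in that pair.

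Sparc encodes osteonectin, a collagen-binding protein of bone, tendon and connective tissue. Its signals were 10.19 and 10.17 with electroacupuncture, 10.68 and 9.68 in suspension alone, and 11.27 and 11.25 in control. The duplicates of the treated and control groups were 0.02 apart, whereas the suspension arrays differed 2.00-fold around the level of the treated arrays. All 4 arrays of suspended mice were below control.

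Thbs1 encodes thrombospondin-1, which can release active TGF-beta from its latent complex. Its signals were 8.09 and 7.82 with electroacupuncture, 7.49 and 6.94 in suspension alone, and 7.97 and 8.27 in control. Both suspension arrays lay below the other 4, and their own difference of 1.47-fold was the smallest among the 7 genes.

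Serpina3n encodes a secreted inhibitor of serine proteases that is induced by inflammation and glucocorticoids. Its signals were 7.96 and 8.00 with electroacupuncture, 10.07 and 6.25 in suspension alone, and 5.55 and 6.47 in control. Suspension array 1 was 14.1-fold above array 2, which itself lay between the control arrays. Mouse has several close paralogs of this gene, so probes of the cluster may also capture their transcripts.

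**Figure D1:**
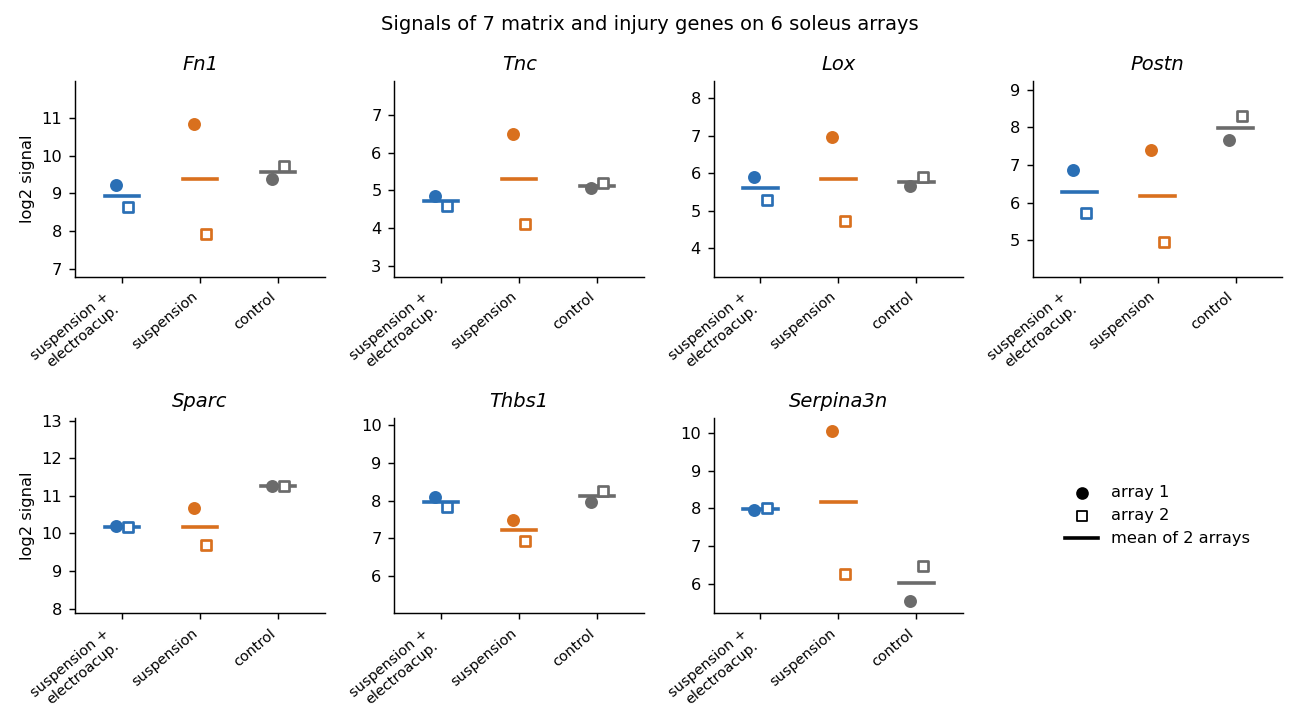
Log2 signal (vertical axis, the same span in each panel) of 7 genes on arrays 1 (filled circles) and 2 (open squares) of each group, with the group mean as a line. Suspension array 1 lies above array 2 in every panel, from 0.55 log2 for Thbs1 to 3.82 for Serpina3n, and in Fn1, Tnc and Lox the suspension arrays are the highest and lowest of the 6.

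The 7 genes divided by where the suspension arrays lay against the control mean. For Fn1, Tnc and Lox, array 1 lay above it by 1.29, 1.39 and 1.19 log2, and array 2 below it at -1.65, -1.03 and -1.04. For Postn, Sparc and Thbs1 both arrays lay below it, at -0.58 and -3.04, -0.57 and -1.57, and -0.63 and -1.19. For Serpina3n both lay above it, at 4.06 and 0.24, although array 2 lay between the control arrays.

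The gap between the suspension arrays accounted for most of the variation of the first set. Of the sum of squares of a gene's 6 signals around their mean, this gap held 89.9% for Lox, 87.6% for Tnc and 86.5% for Fn1. It held 54.4% for Serpina3n, 37.8% for Postn, 24.6% for Sparc and 13.0% for Thbs1. Across the 6 arrays Fn1, Tnc and Lox followed each other with Pearson r of 0.974 to 0.981, and Postn followed Sparc with r of 0.927. Serpina3n had r of 0.013 with Postn and -0.199 with Sparc. These r describe 6 arrays that share groups and normalization. The suspension gap, which chose the genes, enters both the shares and the r, so nothing is read from either.

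The other duplicates differed less. In the electroacupuncture pair 6 of the 7 genes were higher on array 1, beside 51.0% of all genes. The median difference of the 7 was 0.28, with Serpina3n at -0.05. In the control pair 6 of the 7 were lower on array 1, while 51.8% of all genes were higher on it. The median of the 7 was -0.30, with Sparc at 0.02 and Serpina3n lowest at -0.92. The suspension gap was 1.81 times the larger of the other 2 gaps for Thbs1 and 2.13 times for Postn. For the other 5 it was 3.78 to 50.4 times. The highest ratio was that of Sparc, with a suspension gap of 1.00 over gaps of only 0.02. Nothing is read from these ratios, because the suspension gap chose the genes. Over all genes the SD of the gap was 0.25 with electroacupuncture, 0.29 in suspension and 0.36 in control, so the suspension pair as a whole was not the widest. At least 2-fold gaps in suspension ran mostly 1 way, with 125 genes higher and 17 lower on array 1.

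**Figure D2:**
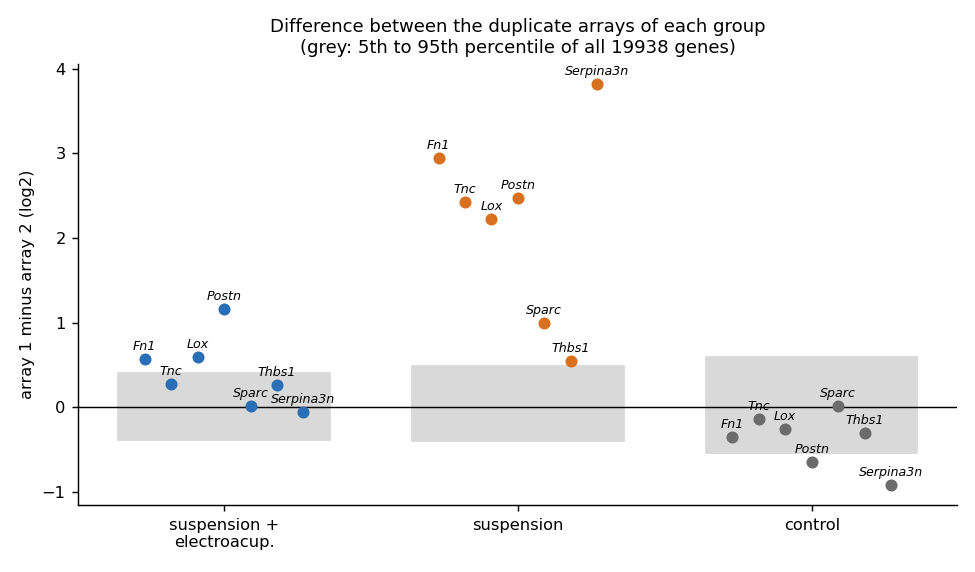
Difference between arrays 1 and 2 (log2) of each group for the 7 genes, with the 5th to 95th percentile of 19938 genes in grey. In suspension all 7 points lie above the grey band, which ends at 0.49, while in control they run from -0.92 to 0.02.

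In order of the size of the suspension gap over all genes, Serpina3n was number 2, Fn1 4, Postn 8, Tnc 11 and Lox 13. Sparc was number 141 and Thbs1 1108. Since these gaps chose the genes, nothing is read from their ranks. The widest gap was that of the collagenase gene Mmp13, with 10.02 on array 1 and 4.09 on array 2. The metalloproteinase inhibitor gene Timp1 was number 3, with 6.98 and 4.04. Both genes lay outside the rule for naming genes and were picked once their values had been seen.

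The comparison of suspended and treated soleus with control soleus contains no array of suspension alone in its difference. The genes were nevertheless chosen with the signals of all 6 arrays known, so its p-values describe the fit and support nothing. None of the 7 genes passed an adjusted p under 0.05 in limma, where 1.03% of all genes did, and 2 of 7 had an unadjusted p under 0.05, against 12.8% of all genes. Groups did not overlap for 5 of 7 genes (1 higher, 4 lower), beside 41.8% of all genes. The median difference of the 7 was -0.41 log2, and that of all genes 0.01.

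Sparc averaged 10.18 ± 0.01 with electroacupuncture and 11.26 ± 0.01 in control (log2 signal, SD, n = 2 each), a difference of -1.07 ± 0.27 (SE; limma adjusted p = 0.118). Postn averaged 6.29 ± 0.82 and 7.99 ± 0.45 in these groups, at -1.70 ± 0.67 (adjusted p = 0.333). Serpina3n averaged 7.98 ± 0.03 and 6.01 ± 0.65, at 1.97 ± 0.94 (adjusted p = 0.439). The error of each test pooled the spread of all 3 groups, the suspension pair included. With the treated and control arrays fitted alone, Sparc and Serpina3n each had an adjusted p of 0.0293. Leaving out suspension array 1 (0.0287 and 0.0292) or array 2 (0.0290 and 0.0290) nearly repeats that fit, since a lone array adds nothing to the error. Without a treated array the adjusted p was 0.522 and 0.467 for Sparc and 0.835 and 0.805 for Serpina3n. Without a control array it was 0.217 and 0.156 for Sparc and 0.662 and 0.349 for Serpina3n.

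The remaining 4 genes differed by less. Fn1 was at -0.65 ± 0.72 log2 from control (adjusted p = 0.808), Tnc at -0.41 ± 0.60 (0.859), Lox at -0.19 ± 0.56 (0.941) and Thbs1 at -0.17 ± 0.20 (0.827). Treated and control arrays overlapped for Lox and Thbs1. Lox turned to 0.11 without electroacupuncture array 2.

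Against control, suspension alone gave 0 calls among the 7 genes (1.05% of all genes in limma) and 4 at an unadjusted p under 0.05 (12.7% of all genes). The suspension arrays chose the genes, so nothing is read from these counts. The groups did not overlap for Postn, Sparc and Thbs1, all lower in suspension (39.8% of all genes did not overlap). Thbs1 averaged 7.21 ± 0.39 in suspension and 8.12 ± 0.22 in control (SD, n = 2 each), a difference of -0.91 ± 0.20 (SE). Sparc differed by -1.07 ± 0.27, Postn by -1.81 ± 0.67 and Serpina3n by 2.15 ± 0.94.

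For Fn1, Tnc and Lox the group mean hid the spread of its arrays. Their differences from control were -0.18 ± 0.72, 0.18 ± 0.60 and 0.08 ± 0.56 log2 (SE). Without suspension array 1 these became -1.65, -1.03 and -1.04, and without suspension array 2 they became 1.29, 1.39 and 1.19. Serpina3n was at 0.24 without array 1 and at 4.06 without array 2, and Sparc at -1.57 without array 1 and at -0.57 without array 2. These are differences of a single suspension array from the control mean, given with no test.

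Between electroacupuncture with suspension and suspension alone, 0 of the 7 genes were called, as were 0.0% of all genes, and 1 of 7 had an unadjusted p under 0.05 (3.07% of all genes). That gene was Thbs1, which encodes the TGF-beta activator described above. It averaged 7.96 ± 0.19 with electroacupuncture and 7.21 ± 0.39 in suspension alone, a difference of 0.74 ± 0.20 log2. Its groups did not overlap, as for 32.6% of all genes, and the adjusted p was 1.00. The differences of the other 6 ran from -0.59 ± 0.60 for Tnc to 0.11 ± 0.67 for Postn, with Sparc at 0.00 ± 0.27. Both treated arrays lay between the 2 suspension arrays for these 6 genes. All 6 therefore lay below the suspended level without suspension array 2 and above it without array 1, for example Serpina3n at -2.09 and 1.73.

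**Figure D3:**
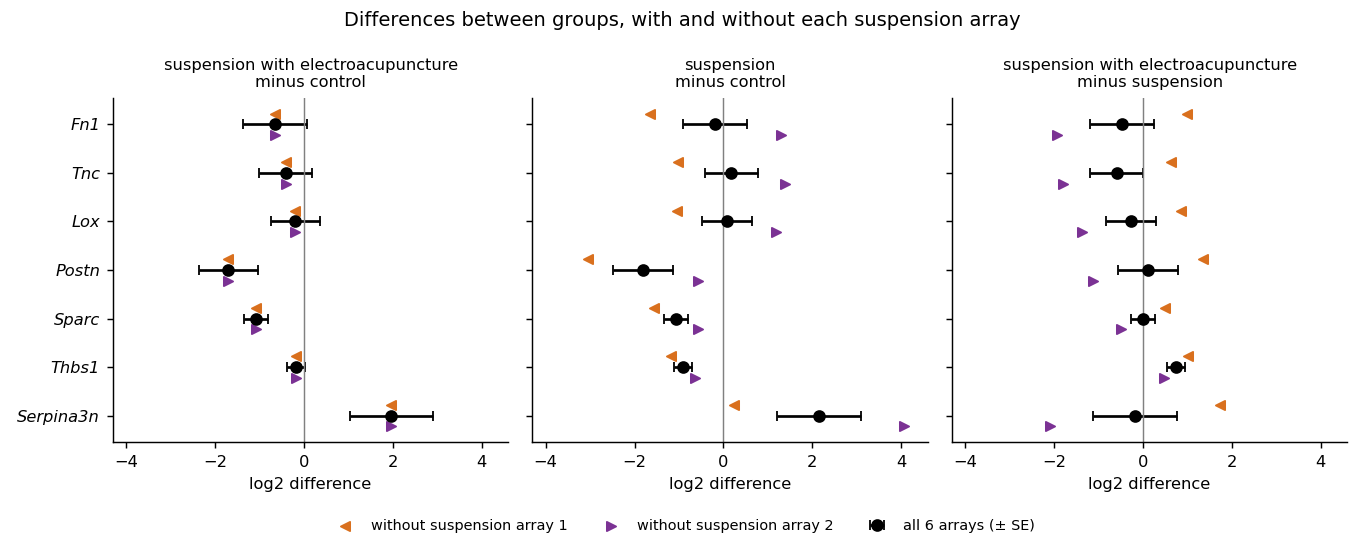
Difference between groups (log2, horizontal axis) for 7 genes: all 6 arrays with the standard error (black), and without suspension array 1 or 2 (triangles). Fn1, Tnc and Lox lie on opposite sides of 0 against control depending on which suspension array is left out, from -1.65 to 1.29 for Fn1.

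Lists of other matrix genes had smaller median gaps between the suspension arrays than the 7 genes, although single genes such as Col1a1 exceeded Sparc and Thbs1. The 7 genes were chosen by that gap, so nothing is read from this order. Over all genes 54.4% were higher on array 1. The lists were drawn up by known role, with earlier results of these data known. Of 24 other matricellular genes 22 were higher on suspension array 1 (median 0.49 log2), and 5 at least 2-fold. Thbs4, a thrombospondin of muscle and tendon matrix, had 10.23 and 8.56 on suspension arrays 1 and 2, and Comp, its cartilage and tendon relative, 6.76 and 5.11. The collagen-associated gene Cthrc1 had 5.52 and 4.19, and the gap of the proteoglycan gene Vcan was 1.18. None of the 24 passed in any comparison of groups.

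Of 17 collagen chain genes 14 were higher on suspension array 1, with a median of 0.41. Col1a1, a chain of the main fibrillar collagen, had 8.48 and 6.69 on these arrays, Col1a2 8.28 and 6.77, and Col3a1 7.16 and 5.64. Unlike Fn1, Col1a1 was below both control arrays (9.41 and 9.01) on both suspension arrays. Among 15 genes that process and cross-link collagen, 14 were higher on array 1 (median 0.42), including the Lox relative Loxl1, with 7.01 and 6.00. Against control, 1 collagen gene, Col12a1, and 1 processing gene, the hydroxylase gene P4ha1, fell in suspension (both with limma adjusted p = 0.0413).

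Median gaps of receptor and growth factor genes were small, although single genes such as Cd44 and Tgfb1 (0.77) lay above 0.49, the 95th percentile of all genes. Of 17 receptor genes for these proteins 12 were higher on suspension array 1, with a median of 0.10 and the widest gap in Cd44, the hyaluronan and osteopontin receptor, at 0.79. Sdc4, a heparan sulphate coreceptor for fibronectin, was lower in suspension with electroacupuncture (6.42 and 6.12) than in control (7.34 and 7.55). The difference was -1.18 ± 0.15 (limma adjusted p = 0.0134). Suspension alone lay between them at 6.74 and 6.84, or -0.65 ± 0.15 from control (limma adjusted p = 0.0947). The difference between the suspended groups, -0.53 ± 0.15, did not pass. Of 19 genes of the TGF-beta pathway 16 were higher on array 1, with a median of 0.12. Tgfb1 had 5.89 and 5.12 on the suspension arrays, and none of the 19 passed.

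Of 15 serpin and acute phase genes 13 were higher on suspension array 1, with a median of 0.94, and 7 at least 2-fold. The metallothionein gene Mt2 had 11.49 and 9.06 on the suspension arrays, the lipocalin gene Lcn2 6.50 and 4.95, and Socs3, a feedback inhibitor of cytokine signalling, 6.83 and 5.38. The haptoglobin gene Hp had a gap of 2.36. None of the 15 passed in a comparison of groups. Hp also differed between control arrays 1 and 2, at 4.42 and 6.79.

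Markers of cells that could hold these transcripts were measured beside them. All 14 fibroblast markers were higher on suspension array 1 (median 0.29). Among those above background, the widest gaps were those of Lum (1.76), Pi16 (1.12), Ddr2 (0.89) and Fap (0.76). Tcf21 was not above background. Relative to control the 14 markers averaged 0.21 on suspension array 1 and -0.29 on array 2. The 7 genes, which were chosen by their gap, averaged 0.88 and -1.33. Of the 14 markers, 1 (the microfibril gene Mfap4) fell in suspension against control (limma adjusted p = 0.0269). Of 21 macrophage markers 18 were higher on array 1 (median 0.73), with averages relative to control of 0.80 and 0.38 on the treated arrays and 0.59 and 0.02 on the suspension arrays, and none passed. Aif1 and Ccr2 were not above background. Of 12 tendon markers 8 were higher on array 1 (median 0.23). Prg4, the lubricin gene of tendon and joint surfaces, had 9.05 and 6.31, while the gap was -0.49 for Chad, -0.18 for Tnmd and -0.07 for Kera. Against control, 3 tendon markers (Tnmd, Kera and Scx) fell in suspension with electroacupuncture and 4 (Chad, Tnmd, Kera and Ptx4) fell in suspension alone. The part of these cells in the matrix gene gap was not tested.

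Neutrophil markers were near even (4 of 10 higher, median -0.02), and 7 of the 10 lay at or below a background level set by olfactory receptor genes. Mmp9 alone stood apart, with 6.39 and 3.75. Of 18 markers of satellite cells and regeneration 11 were higher on array 1 (median 0.14), with Runx1 at 7.29 and 5.71. Endothelial (8 of 10, median 0.15), smooth muscle and pericyte (6 of 8, median 0.25) and adipocyte (7 of 9, median 0.18) markers had small median gaps. The endothelial receptor gene Kdr was lower in suspension with electroacupuncture than in control (limma adjusted p = 0.0135). Its signals in suspension alone, 6.37 and 6.63, lay between those of these groups, and it did not pass between the suspended groups. Adipocyte markers differed between the control arrays (median -1.68). The 12 genes listed as markers of slow and oxidative fibres, Acta1 and Ckm of fibres in general among them, were all above background. Their median gap was -0.02, with a range of -0.22 to 0.16. Of 8 blood markers 2 were measured, with gaps of 0.95 and -0.07. Among the fibre markers, Myh2 and Myl3 were lower in suspension with electroacupuncture than in control, and Myh2 also in suspension alone. Myl3 differed from control by -0.78 ± 0.17 in suspension alone (limma adjusted p = 0.0873).

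**Figure D4:**
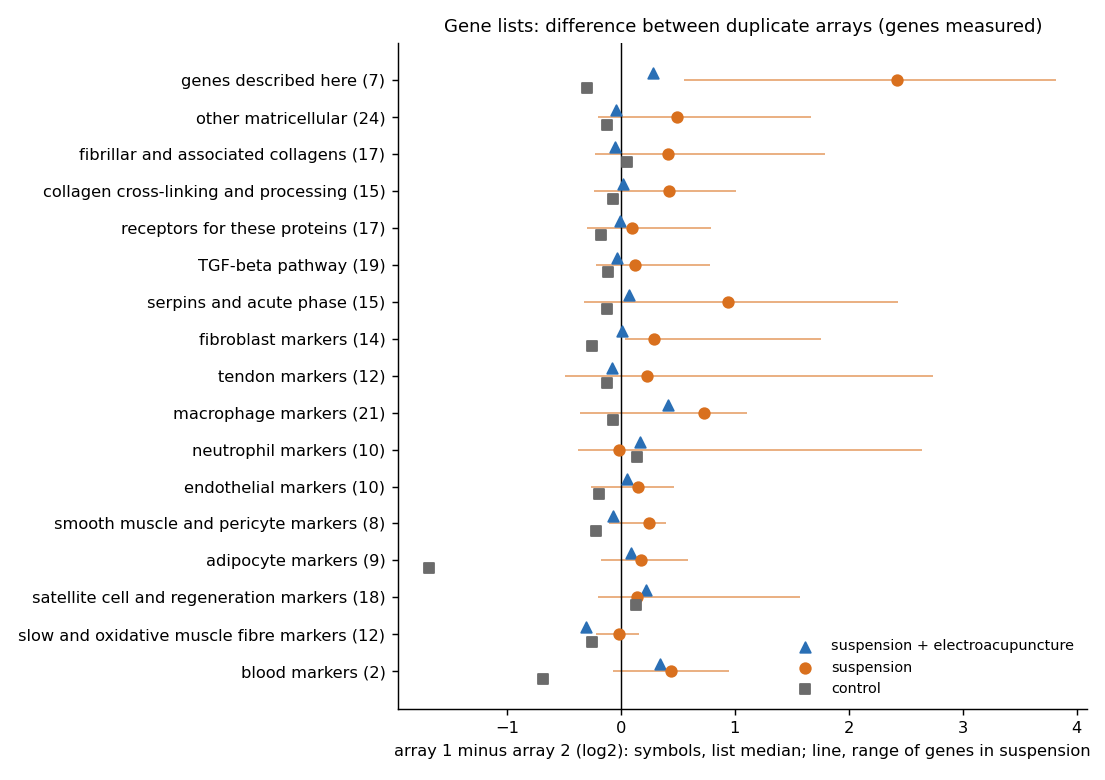
Median difference between arrays 1 and 2 (log2) of each gene list in the 3 groups (symbols), with the range of the genes in suspension as a line. Numbers in brackets are genes measured. Among the lists beside the 7 genes, serpin and acute phase genes (0.94) and macrophage markers (0.73) have the largest medians in suspension. Genes listed as slow and oxidative fibre markers lie at -0.02. The 7 genes (2.42) were chosen by this difference.

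The genes nearest in pattern were looked for among 958 named genes above background with a range of at least 1 log2 over the 6 arrays. Likeness was the Pearson r with the mean of the 7 genes, and it describes 6 arrays of 3 groups. That mean is shaped mostly by the suspension gap, which chose the 7 genes. A gene could also pass the range filter through the suspension arrays alone, as Cilp did. Nothing is therefore read from the likeness or from the suspension gaps of these genes. The highest was that of Cilp, a cartilage and tendon matrix gene, at 0.982. The calcification inhibitor gene Mgp (0.959), Thbs4 (0.950), the vesicle traffic gene Rab31 (0.950) and the secreted matrix gene Srpx2 (0.940) came next. They were followed by Il13ra1, a chain of the interleukin-13 receptor (0.939), C1qtnf3 (0.935), Loxl1 (0.934), Pramel12 (0.921) and Dpysl3 (0.921). Their signals on suspension arrays 1 and 2 were 7.35 and 6.12 for Cilp and 9.70 and 7.49 for Mgp.

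Taken gene by gene, Il13ra1 was nearest to Tnc (0.990), Lox (0.984) and Fn1 (0.966). Its signals were 5.86 and 5.57 with electroacupuncture, 6.64 and 5.40 in suspension alone, and 5.82 and 5.90 in control. The nearest gene was the tropomyosin gene Tpm4 for Postn (0.992), Pttg1ip for Sparc (0.994), the microfibril gene Mfap5 for Thbs1 (0.986) and the exchanger gene Slc9a9 for Serpina3n (0.988). The gap that chose the 7 genes enters these r too.

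**Figure D5:**
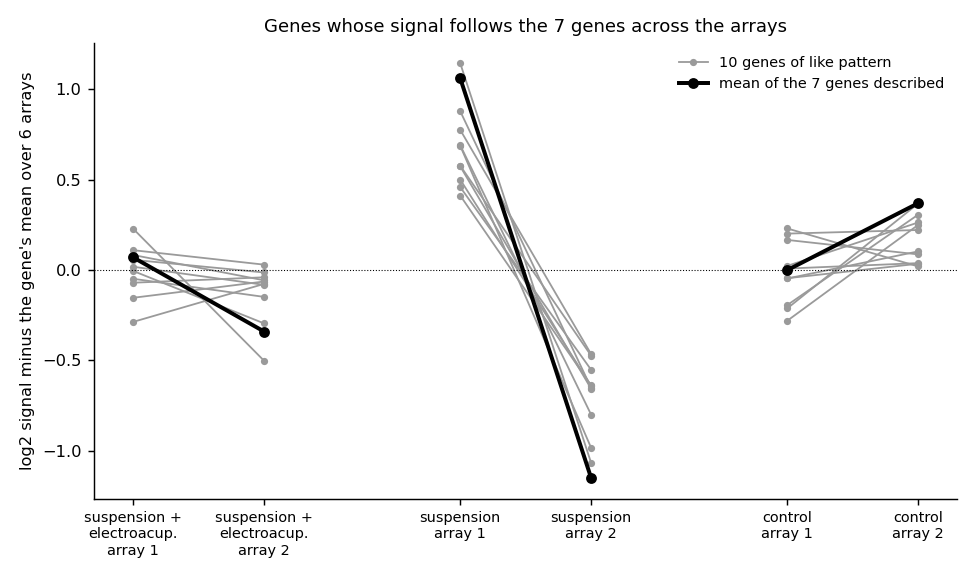
Log2 signal minus each gene's mean over 6 arrays, by array, for the mean of the 7 genes (black) and the 10 genes of highest Pearson r with it (grey). Arrays of a group are joined. The black line is at 1.06 and -1.15 on suspension arrays 1 and 2, and between -0.34 and 0.37 on the other 4. The 7 genes were chosen by the suspension gap.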

How the data were processed

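Total RNA of soleus was labelled with biotin and hybridized to Affymetrix Mouse Gene 1.0 ST arrays. The series matrix deposited by the authors holds log2 signals for 35556 transcript clusters, made by RMA in Affymetrix Expression Console, per the submitters' processing notes. Versions and the genome build are not given in the sources used here. RMA gives all arrays one distribution, so a shift of all genes cannot be seen.

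Clusters with 1 gene symbol (21789) were kept, 21698 of them matched by Entrez ID, and the cluster of highest mean stood for its gene, leaving 19938 genes. Background was the 95th percentile of 1027 olfactory receptor genes, 3.50. Array medians ran from 4.55 to 4.61, and the number of arrays limits the precision. The model was limma's (3.58.1, under R 4.3.3), over all genes and arrays at once, with variances that follow the signal, 3 residual degrees of freedom and Benjamini-Hochberg adjustment over all genes at 0.05. The fit was tested on simulated data. Alternatives were the prior, array weights, a signal filter, 2 scalings, the mean of clusters, compared groups alone, a replicate block and each array left out.

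The genes and the 16 other lists were chosen with earlier results of these data known. Named genes were all members, up to 4 genes of each list with the widest gap between the suspension arrays plus those that passed, and those of most similar pattern. Predicted and clone names were passed over.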

Additional observations from a re-analysis of the deposited data

How the results depend on the processing

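All 7 genes were higher on suspension array 1, with a median gap of 2.42 (2.38 after median centring or cyclic loess, 2.42 with the mean of clusters). No gene passed in any comparison under the other prior, array weights, the signal filter, median centring, the mean of clusters or the replicate block. With the compared groups alone 2 genes (Sparc and Serpina3n) passed for electroacupuncture with suspension against control, among 129 of 19938 genes. With cyclic loess 1 gene (Thbs1) passed for suspension against control, among 295 genes, and the difference of Sparc between electroacupuncture and suspension became 0.0007. Leaving out each array in turn gave 0 to 2 genes for electroacupuncture with suspension against control, with 2 passing without suspension array 1 (among 124 genes) or without array 2 (among 113 genes), and 0 to 1 for suspension against control, with Sparc passing without suspension array 1 (among 16 genes) and Serpina3n without array 2 (among 42 genes).

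With an array left out, differences that changed sign ranged as follows. For electroacupuncture with suspension against control this was Lox (-0.48 to 0.11). For suspension against control these were Fn1 (-1.65 to 1.29), Tnc (-1.03 to 1.39) and Lox (-1.04 to 1.19). For electroacupuncture with suspension against suspension alone these were Fn1 (-1.93 to 1.00), Tnc (-1.80 to 0.62), Lox (-1.37 to 0.85), Postn (-1.12 to 1.34), Sparc (-0.50 to 0.50) and Serpina3n (-2.09 to 1.73). Of 294 recomputed differences of single genes, 270 kept direction and side of the threshold, 9 newly passed and 15 changed sign. The causes were not tested.

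The arrays share only a replicate number: gaps between arrays 1 and 2 correlated across genes at -0.02, 0.02 and -0.16 between groups. The replicate block called 0 of the 7 genes in each comparison. Crossed numbers of the control arrays, tried after seeing the data, called 2 of the 7 (Postn and Thbs1) for suspension against control, among 266 genes.

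Over all genes, 206 passed for electroacupuncture with suspension against control, 101 with the other prior, 129 with the groups alone, 127 with the block, 304 with cyclic loess and 2 to 299 with an array left out. For suspension against control 209 passed, 80 with the other prior, 130 with array weights, 68 with the groups alone, 102 with the block and 16 to 301 with an array left out. Between the suspended groups 0 passed, 4 with array weights and 3 with the groups alone. Some fits with an array left out also called a few genes.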
